A study of Mus musculus with 31 samples.

Results

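The transcripts described here encode 9 cytokines of inflammation, *Tnf*, *Il1a*, *Il1b*, *Il1rn*, *Il6*, *Il12b*, *Il15*, *Il18* and *Il27*. They were chosen by name as a family, with earlier results of these data known, and all 9 were found by gene identifier among the 54532 genes counted in primary mouse microglia and the 48795 counted in mouse hippocampus. The microglia came from the cortices of pups on postnatal days 1 to 3, were grown in mixed glial cultures with granulocyte–macrophage colony-stimulating factor, and were *Cgas*+/+ (labelled WT) or *Cgas*-/- (labelled Cgas KO). Cells of each genotype received vehicle, tau fibrils (2 μg per ml) or HT-DNA (1 μg per ml), fragmented herring testis DNA that activates the cytosolic DNA sensor cGAS, and RNA was taken after 6 h. Each of the 6 groups had 3 libraries. The hippocampi came from 7 non-transgenic (Ntg) mice and 6 mice transgenic for *P301S* human tau, 8 to 9 months old, with 1 library per mouse. The group of 7 held 3 females and 4 males and the group of 6 held 3 of each sex. The *Cgas* genotype of these mice was not stated for this experiment.

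Cytokines are secreted proteins through which microglia, the resident macrophages of the brain, signal to one another and to other cells. *Tnf* encodes tumour necrosis factor, and *Il1a* and *Il1b* encode the ligands of the interleukin-1 receptor. *Il1rn* encodes the antagonist that occupies the same receptor without signalling. *Il6* encodes a ligand that signals through gp130. *Il12b* encodes p40, a subunit shared by interleukin-12 and interleukin-23, and *Il27* encodes p28, which pairs with the product of *Ebi3* to form interleukin-27. *Il15* encodes a cytokine presented on its receptor chain IL-15Rα, and *Il18*, like *Il1b*, encodes a precursor that is cleaved by caspase-1. Many of these genes are induced through NF-κB, and several respond to interferons, which cGAS induces through STING.

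Between 17037459 and 25174764 reads per microglial library and between 25953296 and 35779977 per hippocampal library were counted on genes. *Cgas* had 23.2 ± 4.21 normalized CPM (CPM, counts relative to library size after TMM scaling; SD, n = 3) in *Cgas*+/+ vehicle cells and 4.93 ± 0.748 (SD, n = 3) in *Cgas*-/- vehicle cells, and no *P301S* mouse had as little *Mapt* as any Ntg mouse. The microglial cultures had all 7 microglial markers above the floor of 3 counts in each group, with a summed level of 3460 to 3774 normalized CPM in *Cgas*+/+ and 2240 to 2743 in *Cgas*-/- libraries. Among 7 homeostatic markers *Siglech* was at 0 counts in both vehicle groups. The summed level of 5 astrocyte markers was 4.46 to 5.80 normalized CPM with vehicle, 7.62 to 9.66 with tau and 10.4 to 13.7 with HT-DNA in *Cgas*+/+ cells, and 0.636 to 1.76 in *Cgas*-/- libraries, and that of 4 fibroblast markers was 0.982 to 5.06 and 0.0521 to 0.441. Tau went with higher microglial sums in both genotypes, from 3557 to 3633 with vehicle up to 3664 to 3774 in *Cgas*+/+ and from 2274 to 2390 up to 2617 to 2743 in *Cgas*-/- libraries. The sum of the 7 homeostatic markers did not follow this. It was 2221 to 2349 with vehicle and 2111 to 2229 with tau in *Cgas*+/+ libraries. In *Cgas*-/- libraries it was 1490 to 1612 and 1565 to 1643. The sum of 4 oligodendrocyte markers was 83.6 to 94.3 with vehicle, 63.3 to 85.6 with tau and 106.8 to 113.1 with HT-DNA in *Cgas*+/+ cells, and 50.3 to 54.5 in *Cgas*-/- libraries. The largest sum outside microglia was that of 2 oligodendrocyte precursor markers, *Pdgfra* and *Cspg4*. It was 455 to 538 normalized CPM in *Cgas*+/+ and 492 to 557 in *Cgas*-/- libraries, which overlapped. Most of these marker levels moved with genotype and some with treatment, and their part in the results was not tested. The study describes the samples of a microglial group as biologically independent, and the labels do not say what separates them.

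The first question was which of the 9 transcripts rose in *Cgas*+/+ microglia given tau fibrils. All 9 did, with a median log2 fold change of 2.09 against -0.01 over all 13675 genes tested. A gene was called changed where edgeR's quasi-likelihood test gave a Benjamini-Hochberg adjusted p under 0.05 together with a log2 fold change of more than 1 in size, and 2.89% of tested genes were called higher. In each of the 9 transcripts the 3 tau libraries lay above the 3 vehicle libraries, as they did for 21.7% of tested genes. *Il1b*, *Il6* and *Il12b*, with at most 13 counts in any *Cgas*+/+ vehicle library, rose the most. *Tnf*, *Il1a*, *Il1rn*, *Il15*, *Il18* and *Il27* rose 2.45-fold to 4.54-fold.

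*Il1b* had 0.532, 0.562 and 0.486 normalized CPM in the vehicle libraries and 20.2, 13.5 and 24.4 in the tau libraries. This was a log2 fold change of 5.18 (SE, standard error, 0.28; adjusted p = 3.06e-14). *Il12b* had 0, 5 and 2 counts with vehicle and 192, 189 and 263 with tau. The tau libraries held 8.93 to 13.6 normalized CPM of it and the vehicle libraries at most 0.216. *Il6* had 2, 0 and 1 counts with vehicle, which is at the floor, and 61, 29 and 49 with tau, at least 14.9-fold higher. Its levels in the tau libraries, 3.33, 1.37 and 2.54 normalized CPM, spread over more than those of any other transcript of the family under tau relative to their mean. With *Il6* set to the lower bound that this floor allows, the median of the 9 log2 fold changes was still 2.09.

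Among the others *Tnf* had 24.2, 21.1 and 20.2 normalized CPM under vehicle and 97.8, 76.0 and 105 under tau (log2 fold change 2.09, SE 0.10, adjusted p = 6.82e-15). *Il1a* went from 12.8, 14.5 and 10.4 to 30.4, 28.8 and 38.0 normalized CPM, a log2 fold change of 1.36 (SE 0.10). The antagonist *Il1rn* was counted 1770 to 2279 times per vehicle library and 4312 to 4938 times per tau library, a log2 fold change of 1.29 (SE 0.07, adjusted p = 2.16e-14). *Il15* and *Il18* rose by nearly the same amount, 1.33 (SE 0.12) and 1.34 (SE 0.13). *Il27* had only 10 to 32 counts per vehicle library and 58 to 92 per tau library, a log2 fold change of 2.18 (SE 0.32, adjusted p = 3.42e-06).

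**Figure D1:**
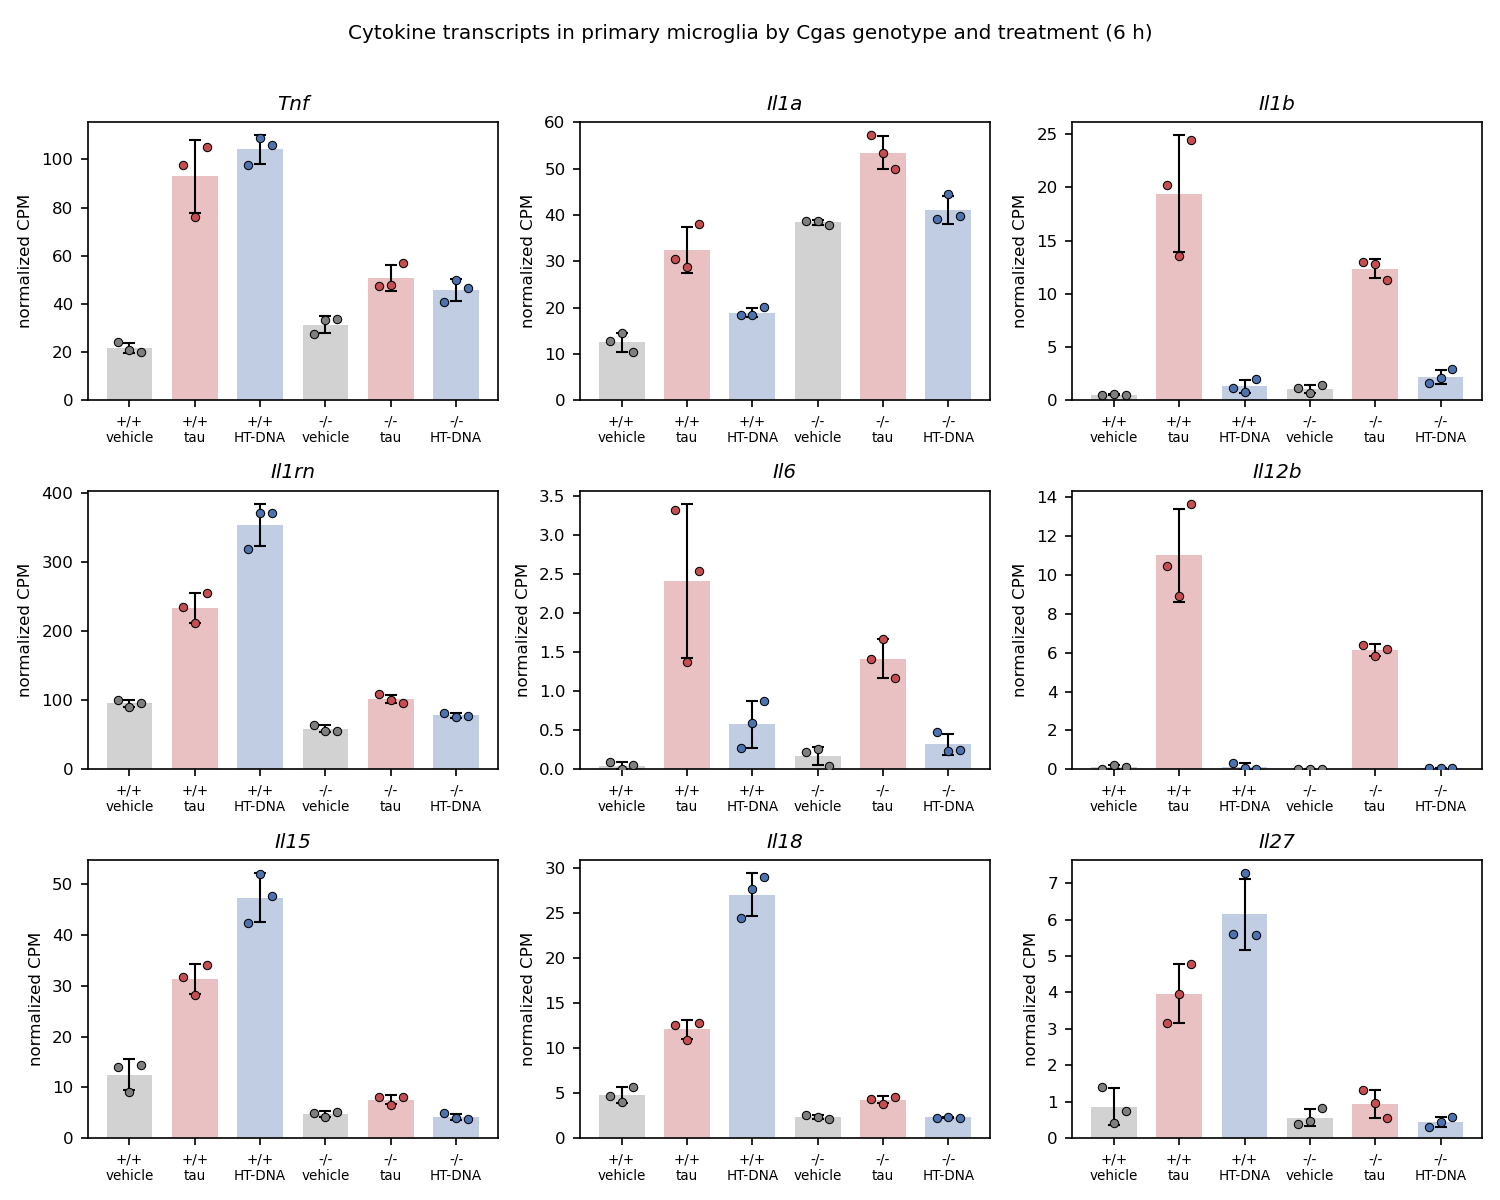
Normalized CPM (y axis, linear from 0, a separate scale for each gene) of the 9 cytokine transcripts in the 6 groups of primary microglia, with *Cgas* genotype and treatment on the x axis. Points are libraries, bars are means and error bars are SD (n = 3); *Il1a*, *Il1b*, *Il6* and *Il12b* are higher with tau than with HT-DNA or vehicle in both genotypes, *Il1rn*, *Il15*, *Il18* and *Il27* are highest in *Cgas*+/+ cells with HT-DNA, and *Il1a* has its highest mean in *Cgas*-/- cells with tau.

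HT-DNA, given as a direct activator of cGAS, raised 7 of the 9 transcripts in *Cgas*+/+ cells, where 5.29% of tested genes were called higher. These were *Tnf*, *Il1b*, *Il1rn*, *Il6*, *Il15*, *Il18* and *Il27*. The libraries did not overlap for these and *Il1a*, 8 of the 9 (26% of tested genes). *Il1a* passed the adjusted p but not the fold, with 18.4, 18.3 and 20.04 normalized CPM and a log2 fold change of 0.58 (SE 0.11, adjusted p = 5.13e-05). *Il12b* had 6, 1 and 0 counts with HT-DNA, overlapping its vehicle libraries, and did not pass (log2 fold change 0.21, SE 0.90, adjusted p = 0.876). The tau and HT-DNA comparisons share the 3 vehicle libraries, so their values are given side by side and no likeness between them is read from it. The median log2 fold change of the family was 1.93, or 1.89 with *Il6* at its bound, against -0.03 over all genes tested.

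The rank of the transcripts by response was different from that under tau. *Il27*, with 5.59, 7.27 and 5.57 normalized CPM, rose by 2.81 (SE 0.31) on the log2 scale, and *Il18*, with a mean of 27.02 ± 2.38 (SD, n = 3) and no library under 24.4, by 2.50 (SE 0.12, adjusted p = 3.43e-16). *Tnf* reached 97.5, 109 and 106 normalized CPM, *Il1rn* 319, 371 and 372, and *Il15* 42.3, 51.9 and 47.7. *Il1b* and *Il6* reached far lower levels than with tau. *Il1b* had 1.14, 0.754 and 2.02 normalized CPM (log2 fold change 1.29, SE 0.43, adjusted p = 0.0139), and without the third HT-DNA library its log2 fold change was 0.87 and its adjusted p 0.154. *Il6* had 5, 11 and 16 counts per library and was at least 3.58-fold higher than with vehicle.

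Tau and HT-DNA were then compared with each other in *Cgas*+/+ cells, a comparison that does not use the vehicle libraries. Tau gave higher levels of *Il1b*, *Il6* and *Il12b*, 3 of the 9 transcripts, where 1.78% of genes were called higher. It gave lower levels of *Il18*, 1 of the 9, where 1.49% were called lower. *Il12b* differed by 6.38 on the log2 scale (SE 0.39, adjusted p = 1.08e-12), *Il1b* by 3.89 (SE 0.25) and *Il6* by 2.04 (SE 0.43, adjusted p = 0.000374). *Il18* fell by 1.16 from HT-DNA to tau (SE 0.11, adjusted p = 9.87e-10). On the adjusted p alone *Il1a* was also higher with tau, by 0.77 (17.1% of tested genes), and *Il1rn* and *Il15* had log2 differences of -0.59 and -0.60 (17.8% lower). *Il27* had a log2 difference of -0.63 with an adjusted p of 0.0612. *Tnf* reached overlapping levels with both, 76.0 to 105 normalized CPM with tau and 97.5 to 109 with HT-DNA. Its log2 difference of -0.17 had a 95% interval of -0.34 to 0.01 and an adjusted p of 0.169.

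The 9 genes lie on 7 chromosomes of the GRCm38 build, with *Il1a*, *Il1b* and *Il1rn* on chromosome 2. *Il1a* (129299610 to 129309972, minus strand) and *Il1b* (129364570 to 129371139, minus strand) lie near each other there, and *Il1rn* (24336853 to 24351494, plus strand) is far from both. *Tnf* lies on chromosome 17 (35199381 to 35202007), *Il6* on chromosome 5 (30013114 to 30019981), *Il12b* on chromosome 11 (44400063 to 44414033), *Il15* on chromosome 8 (82331632 to 82403222) and *Il27* on chromosome 7 (126589010 to 126594941). *Il18* (50554827 to 50581840) is on chromosome 9, as is *Cgas* (78430526 to 78443237). The upstream 250 bases of 7 of the 9 genes could be matched in the RefSeq promoters of GRCm38.p6, with 3 starts for *Il1rn* and 1 for each of the others. *Il15* and *Il27* were not matched. The sequences below are those of the 3 transcripts that were called higher with tau than with HT-DNA in *Cgas*+/+ cells, and of *Il18*, which was highest with HT-DNA in *Cgas*+/+ cells. They are written 5′ to 3′ on the strand of the gene and end at the base before the RefSeq start, at chr2:129371140-129371389 (minus strand) for *Il1b*, chr5:30012864-30013113 (plus) for *Il6*, chr11:44399813-44400062 (plus) for *Il12b* and chr9:50554450-50554699 (plus) for *Il18*. The RefSeq start of *Il18* lies before the start in GENCODE. Capitals mark matches on either strand, overlapping ones included, to NF-kB letters (GGG, any 5 bases, CC), AP-1 letters (TGANTCA) or a TATA box (TATAAA).
Il1b: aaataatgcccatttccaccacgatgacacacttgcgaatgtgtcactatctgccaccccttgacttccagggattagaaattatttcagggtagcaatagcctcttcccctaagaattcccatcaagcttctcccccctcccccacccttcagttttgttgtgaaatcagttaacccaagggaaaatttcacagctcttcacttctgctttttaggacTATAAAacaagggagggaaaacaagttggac
Il6: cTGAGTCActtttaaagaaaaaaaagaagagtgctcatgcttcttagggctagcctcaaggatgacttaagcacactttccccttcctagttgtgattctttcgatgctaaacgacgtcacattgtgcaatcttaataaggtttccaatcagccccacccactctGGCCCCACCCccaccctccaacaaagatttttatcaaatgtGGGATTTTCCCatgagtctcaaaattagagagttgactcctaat
Il12b: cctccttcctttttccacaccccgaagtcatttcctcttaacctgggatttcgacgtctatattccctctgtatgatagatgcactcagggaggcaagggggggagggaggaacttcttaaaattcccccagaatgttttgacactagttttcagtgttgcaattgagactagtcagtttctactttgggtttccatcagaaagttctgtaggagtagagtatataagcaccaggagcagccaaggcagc
Il18: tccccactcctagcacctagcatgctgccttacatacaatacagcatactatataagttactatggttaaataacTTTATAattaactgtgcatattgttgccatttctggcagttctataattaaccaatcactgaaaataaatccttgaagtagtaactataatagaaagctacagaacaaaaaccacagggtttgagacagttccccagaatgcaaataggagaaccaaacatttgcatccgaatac
The NF-kB letters occurred in the window of *Il6*, where 2 of the 3 matches overlap on opposite strands, and also in those of *Tnf* and *Il1rn*, which makes 3 of 7 genes with a window, against 45.8% of all 32851 promoters of this length. The AP-1 letters occurred in *Il1a*, *Il1rn* and *Il6* (6.75% of all promoters) and the TATA box in *Tnf*, *Il1a*, *Il1b* and *Il18* (12.4%), in *Il18* on the opposite strand. The letters searched for an interferon-stimulated response element (GAAA, any 2 bases, GAAA) occurred in none of the 7 genes and in 2.98% of all promoters. A match is a description of letters in these 250 bases, and their absence says nothing about the factor.

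Whether the tau response depended on *Cgas* was addressed in *Cgas*-/- microglia. Tau raised 3 of the 9 transcripts past both thresholds, the same 3 that were called higher with tau than with HT-DNA in *Cgas*+/+ cells, where 2.46% of tested genes were called higher. *Il1b* had 1.17, 0.678 and 1.41 normalized CPM with vehicle and 12.96, 12.8 and 11.3 with tau (log2 fold change 3.48, SE 0.26, adjusted p = 1.14e-11). *Il6* had 4, 5 and 1 counts with vehicle and 32, 40 and 30 with tau (log2 fold change 3.03, SE 0.54, adjusted p = 9.21e-05). *Il12b* had 0 counts in all 3 vehicle libraries and 145, 139 and 158 with tau, and was at least 36.6-fold higher. On the adjusted p alone 8 of the 9 rose (11.2% of tested genes), with *Tnf*, *Il1a*, *Il1rn*, *Il15* and *Il18* at log2 fold changes of 0.48 to 0.86. In the same 8 transcripts no tau library overlapped a vehicle library (17.4% of tested genes). *Il27* did not pass, with 7, 9 and 19 counts under vehicle and 30, 23 and 14 under tau (log2 fold change 0.68, SE 0.41, adjusted p = 0.308). The median of the family was 0.79 on the log2 scale, the same with *Il12b* at its bound.

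How far the tau response differed by genotype was tested as an interaction, at an adjusted p under 0.05 with no minimum size. It was negative for 4 of the 9 transcripts, *Tnf*, *Il1a*, *Il1b* and *Il1rn*, where 3.31% of tested genes had a negative interaction. *Tnf* had an interaction of -1.40 on the log2 scale (SE 0.15, adjusted p = 1.59e-07), a rise of 4.25-fold in *Cgas*+/+ against 1.61-fold in *Cgas*-/- cells. *Il1a* had -0.88 (SE 0.13, adjusted p = 5.31e-05) and *Il1rn* -0.50 (SE 0.10, adjusted p = 0.00140). The level of *Il1a* was nevertheless higher in *Cgas*-/- than in *Cgas*+/+ cells with vehicle (38.4 against 12.5 normalized CPM) and with tau (53.5 against 32.4). *Il1b* had -1.69 (SE 0.47, adjusted p = 0.0246), and its adjusted p was above 0.05 in 4 of the 18 fits that left out a library, at 0.138 without the third *Cgas*-/- vehicle library, 0.0659 without the first, 0.0564 without the third *Cgas*+/+ vehicle library and 0.0529 without the third *Cgas*+/+ tau library. *Il15* had -0.66 with an adjusted p of 0.0555, and between 0.00197 and 0.0473 in each of 4 other fits of the same data. *Il27* had -1.50 (adjusted p = 0.0981), and its adjusted p was 0.0342 when genes with low counts were kept, 0.0147 (log2 interaction -2.08) without *Cgas*+/+ vehicle library 1 and 0.0445 without *Cgas*-/- tau library 1. *Il18* had -0.48 (adjusted p = 0.179). No interaction is given for *Il6* and *Il12b*, since each was at the floor or at 0 in a vehicle group.

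HT-DNA gave a different picture in *Cgas*-/- cells. Past both thresholds it raised 0 of the 9 transcripts, where 0.0146% of tested genes were called higher by the edgeR test, and DESeq2 also called 0. On the adjusted p alone it raised *Tnf* and *Il1rn* (1.04% of tested genes), and 4 of the 9 had an unadjusted p under 0.05, these and *Il1b* and *Il12b*. The share of all tested genes at an unadjusted p is not given, here or below, so such counts cannot be read against it. *Tnf* had 27.3, 33.2 and 33.7 normalized CPM with vehicle and 40.6, 49.8 and 46.6 with HT-DNA (log2 fold change 0.54, SE 0.10, adjusted p = 0.00538). *Il1rn* rose by 0.41 (SE 0.07, adjusted p = 0.00250). *Il1b* had a log2 fold change of 1.02 with an adjusted p of 0.142, and of 0.00395 when genes with low counts were kept in the fit. For 5 of the 9, *Tnf*, *Il1a*, *Il1b*, *Il1rn* and *Il12b*, the HT-DNA libraries lay above the vehicle libraries. The share of all tested genes that did so is not given, so this count is not a result about the family. *Il15*, *Il18* and *Il27* had log2 fold changes of -0.20, -0.02 and -0.34 with overlapping libraries. *Il12b* stayed at the floor, with 1 or 2 counts per library.

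The interaction of HT-DNA with genotype was negative for 6 of the 9 transcripts, *Tnf*, *Il1a*, *Il1rn*, *Il15*, *Il18* and *Il27*, where 16.6% of tested genes had a negative interaction. *Il27* had -3.15 on the log2 scale (SE 0.58, adjusted p = 7.44e-05), *Il18* -2.52 (SE 0.22, adjusted p = 3.33e-10) and *Il15* -2.13 (SE 0.22, adjusted p = 9.69e-09). *Tnf* had -1.71, *Il1rn* -1.47 and *Il1a* -0.48. *Il1b* did not pass, with an interaction of -0.27, a standard error of 0.54 and an interval of -1.33 to 0.79 (95%). All of these fits use the same vehicle libraries for both treatments.

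**Figure D2:**
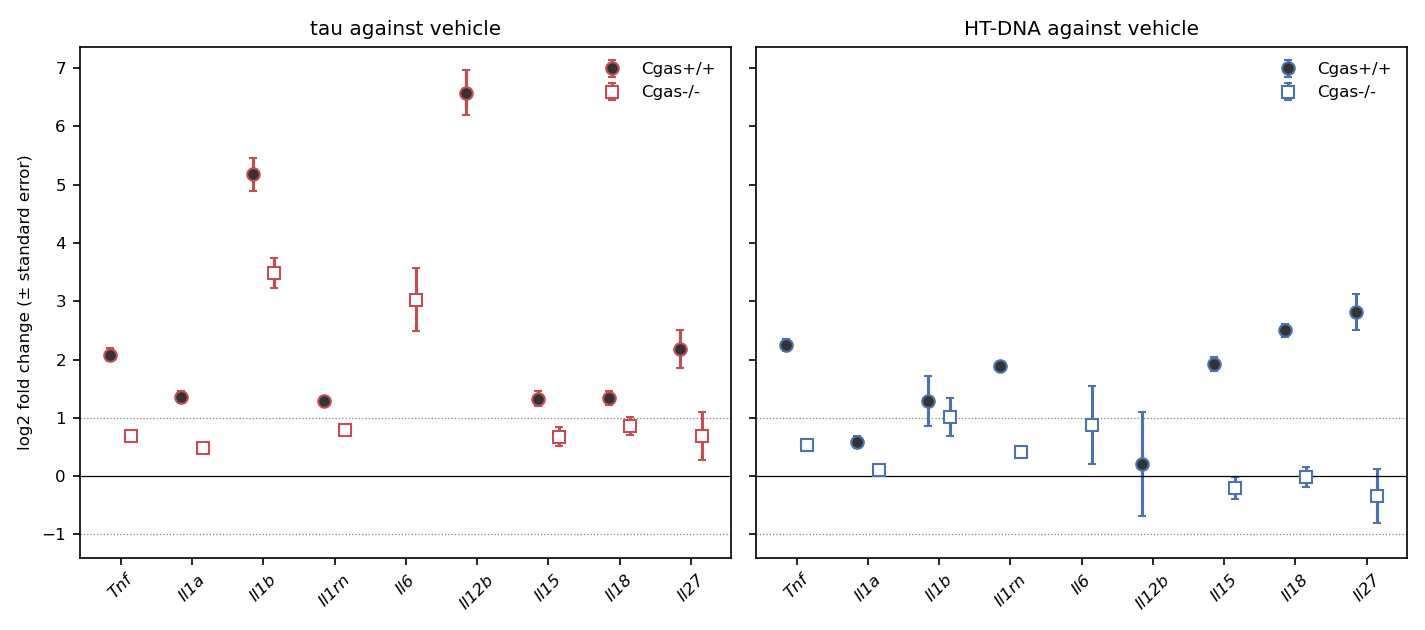
Log2 fold change against vehicle (y axis, ± standard error, n = 3 libraries per group) of each transcript with tau (left) or HT-DNA (right), filled circles for *Cgas*+/+ and open squares for *Cgas*-/- cells, with dotted lines at 1 and -1. Genes whose vehicle group was at or under 3 counts in every library (*Il6* in *Cgas*+/+, *Il12b* in *Cgas*-/-) are left out there; *Il1b* and *Il6* stay above 3 with tau in *Cgas*-/- cells, while *Il15*, *Il18* and *Il27* lie at or below 0 with HT-DNA.

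The genotypes also differed without any stimulus. In vehicle cells *Il1a* and *Il1b* were higher in *Cgas*-/- than in *Cgas*+/+ microglia (2 of 9, where 2.63% of tested genes were called higher), and *Il12b*, *Il15* and *Il18* were lower (3 of 9, where 7.35% were called lower). *Il1a* had 38.8, 38.7 and 37.8 normalized CPM in *Cgas*-/- libraries, against 10.4 to 14.5 in *Cgas*+/+ libraries (log2 difference 1.603, SE 0.10, adjusted p = 9.90e-14). *Il15* had 4.97, 4.17 and 5.15 against 14.05, 9.08 and 14.4 (log2 difference -1.38, SE 0.16, adjusted p = 2.09e-08). *Il18* had 2.62, 2.35 and 2.16 against 4.74, 3.98 and 5.72 (log2 difference -1.01, SE 0.16, adjusted p = 4.73e-06). The call for *Il12b* rested on 0, 5 and 2 counts against 0 in each *Cgas*-/- library, with overlapping groups, and no fold is given for it. It was lost without *Cgas*+/+ vehicle library 2 or 3 (adjusted p = 0.184 and 0.0562) or any 1 of the *Cgas*-/- vehicle libraries (0.0760 to 0.0901), and when the other treatments were left out of the fit (0.0763). *Il18* stayed past the adjusted p but had a log2 difference of under 1 in size in 6 of the 18 fits that left out a library, at -0.88 without *Cgas*+/+ vehicle library 3, -0.94 without *Cgas*-/- vehicle library 3 and -0.99 without *Cgas*+/+ tau library 1 or any 1 of the *Cgas*+/+ HT-DNA libraries. It was also -0.99 without the filter and without the other treatments in the fit. That for *Il1b* rested on 21, 13 and 32 against 12, 13 and 9 counts (adjusted p = 0.0456), and it was lost in 8 of the 18 fits that left out a library. These left out any of the *Cgas*+/+ vehicle libraries (0.0690 to 0.0944), *Cgas*-/- vehicle library 1 or 3 (0.0952 and 0.216), *Cgas*-/- tau library 1 or 2, or *Cgas*-/- HT-DNA library 2 (0.0501 to 0.0522). On the adjusted p alone *Tnf* was also higher, by 0.53 (24.7% of tested genes), and *Il1rn* had a log2 difference of -0.70 (27.3% lower).

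Under tau, *Il1rn*, *Il15*, *Il18* and *Il27* were lower in *Cgas*-/- than in *Cgas*+/+ cells (4 of 9, where 7.41% of tested genes were called lower). *Il15* had 8.16, 6.62 and 8.10 normalized CPM against 31.3 ± 2.91 (SD, n = 3) (log2 difference -2.04, SE 0.13), and *Il27* 1.32, 0.963 and 0.548 against 3.16, 3.97 and 4.77 (log2 difference -2.08, SE 0.31, adjusted p = 2.25e-06). *Tnf*, *Il1b* and *Il12b* were lower on the adjusted p alone (26.2% of tested genes) by 0.87, 0.65 and 0.84 on the log2 scale. *Il1a* was higher by 0.72 on the adjusted p alone (25.2%). *Il6* had a log2 difference of -0.76 (adjusted p = 0.0909). Under HT-DNA the 5 transcripts *Tnf*, *Il1rn*, *Il15*, *Il18* and *Il27* were lower (11.8% of tested genes) and *Il1a* was higher (6.31%). *Il1b* was higher on the adjusted p alone by 0.77 (33.1%), with overlapping libraries. The log2 differences of *Il15*, *Il18* and *Il27* were -3.51, -3.53 and -3.74, so that HT-DNA-treated *Cgas*-/- libraries held 2.28 to 2.41 normalized CPM of *Il18* and *Cgas*+/+ libraries at least 24.4. In these comparisons genotype and culture cannot be told apart, and the lower microglial and astrocyte marker sums of *Cgas*-/- libraries given above go with each of them.

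The order of the 6 groups was taken from the same libraries as the tests above and adds no separate support to them. *Tnf*, *Il1rn*, *Il15*, *Il18* and *Il27* had their highest mean with HT-DNA in *Cgas*+/+ cells, *Il1b*, *Il6* and *Il12b* with tau in *Cgas*+/+ cells, and *Il1a* with tau in *Cgas*-/- cells. For *Tnf* the difference between HT-DNA and tau lay within the spread in *Cgas*+/+ cells, and in *Cgas*-/- cells as well (adjusted p = 0.353). For *Il27* the difference between HT-DNA and tau in *Cgas*+/+ cells did not pass the edgeR test (adjusted p = 0.0612). For *Il1rn*, tau in *Cgas*-/- cells (102 normalized CPM) came next to vehicle in *Cgas*+/+ cells (95.7), and these did not differ beyond their spread (adjusted p = 0.292). The same held for *Il18* (4.28 and 4.81 normalized CPM, adjusted p = 0.368) and *Il27* (0.945 and 0.869, adjusted p = 0.850). For *Il15* tau in *Cgas*-/- cells stayed below vehicle in *Cgas*+/+ cells (7.62 and 12.5 normalized CPM, adjusted p = 0.000120). For *Il1a* all 3 *Cgas*-/- groups lay above the 3 *Cgas*+/+ groups by their means, and *Cgas*-/- vehicle cells (38.4 normalized CPM) still exceeded *Cgas*+/+ cells with tau (32.4, adjusted p = 0.0202), although the libraries of these 2 groups overlapped.

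Across the 18 libraries *Il1rn*, *Il15*, *Il18* and *Il27* followed one another, with Pearson correlations of log2 CPM of 0.94 to 0.98 over their 6 pairs, and *Il1b*, *Il6* and *Il12b* with correlations of 0.80 to 0.92 over 3 pairs. Between these sets the 12 correlations were 0.16 to 0.52. *Il1a* ran against the first set, at -0.51 to -0.30, and had correlations of 0.40 to 0.62 with the second. *Tnf* went with both, at 0.68 to 0.83 with the first set and 0.44 to 0.74 with the second. The libraries share their groups, so these correlations describe the group means and carry no test. Among genes outside the family with at least 1 normalized CPM on average, those most like *Tnf* were *Spryd7* (0.98), *Nfkbia* (0.97), which encodes the NF-κB inhibitor IκBα, and *Ube2d3* (0.95). Those most like *Il1b* were *Tnfaip2*, *Gpr84* and *Tnip1* (0.95 to 0.97), and those most like *Il12b* were *Adam17*, *Slc11a2* and *Agtrap* (0.96 for each). *Il6* was followed most closely by *Prdx1*, *Birc3* and *Slc7a2* (0.91 to 0.94) and *Il1a* by *Hcar2*, *Mmp2* and *Ghitm* (0.96 to 0.98). For *Il1rn* they were *Jak2*, *Arel1* and *Ccl2* (0.99 for each), for *Il15* *Asb13*, *Trim26* and *Rnf19b* (0.99 for each), for *Il18* ENSMUSG00000023307, *Aftph* and *Hmox2* (0.99 for each) and for *Il27* *Usb1*, *Nr3c1* and *Cd274* (0.97 for each).

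The interleukin-1 receptor can be bound by either of 2 ligands or by the antagonist. The counts of *Il1rn* and of 1 of the ligands, *Il1b*, were set against each other within each library. With vehicle the log2 ratio of *Il1rn* to *Il1b* was 7.44 ± 0.144 (SD, n = 3) in *Cgas*+/+ and 5.79 ± 0.515 in *Cgas*-/- cells. With tau it was 3.63 ± 0.303 and 3.04 ± 0.0554, below every vehicle and HT-DNA library of either genotype. With HT-DNA it was 8.16 ± 0.697 in *Cgas*+/+ and 5.18 ± 0.476 in *Cgas*-/- cells. This ratio leaves out the other ligand transcript, *Il1a*, which had more counts than *Il1b* in every library. The log2 ratio of *Il1b* to *Il1a* was -0.77 ± 0.278 with tau in *Cgas*+/+ and -2.11 ± 0.0498 in *Cgas*-/- cells. From vehicle to tau *Il1rn* and *Il1a* rose by 1.29 and 1.36 on the log2 scale in *Cgas*+/+ and by 0.79 and 0.48 in *Cgas*-/- cells. The fall in the ratio to *Il1b* therefore does not describe both ligands. An exact permutation test of 3 libraries against 3 cannot give a p under 0.1, so no p is given for a ratio. The log2 ratio of *Il27* to *Ebi3*, the transcripts of the interleukin-27 subunits, rose from -3.47 ± 0.968 with vehicle to -1.55 ± 0.264 with tau and -0.39 ± 0.328 with HT-DNA in *Cgas*+/+ cells, without overlap between treated and vehicle libraries. In *Cgas*-/- cells it was -3.20 ± 0.423, -3.08 ± 0.736 and -3.41 ± 0.512, with overlapping libraries. *Ebi3* itself varied less, between means of 4.92 and 11.5 normalized CPM.

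**Figure D3:**
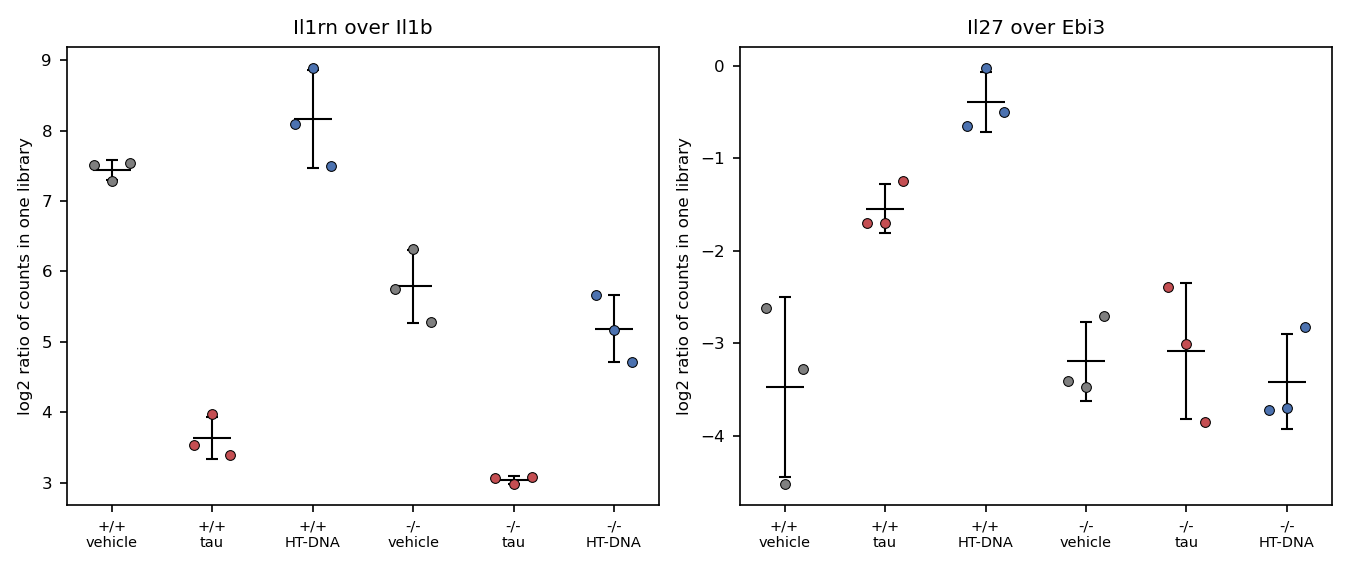
Log2 ratio of the counts of a pair of genes within 1 library (y axis, 0.5 added to each count) for *Il1rn* over *Il1b* (left) and *Il27* over *Ebi3* (right) in the 6 groups, with 1 point per library, the mean as a line and SD as error bars (n = 3). With tau the *Il1rn* over *Il1b* ratio lies between 2.98 and 3.97 in both genotypes, and with HT-DNA in *Cgas*+/+ cells between 7.50 and 8.89.

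To form interleukin-12 or interleukin-23 the p40 subunit needs a partner, and the transcripts of these partners were scarcely counted. *Il12a*, which encodes the p35 subunit of interleukin-12, had 0 counts in all 18 microglial libraries, so at this depth fewer than 3 counts per library cannot be told from none. *Il23a*, which encodes the p19 subunit of interleukin-23, had 3 to 6 counts with tau in *Cgas*+/+ cells, 2 to 5 with tau in *Cgas*-/- cells and at most 3 elsewhere. *Il1r2*, the decoy receptor of interleukin-1, had at most 6 counts in any microglial library. The binding protein *Il18bp*, which neutralises interleukin-18, rose with HT-DNA in *Cgas*+/+ cells from 3.91 ± 0.0530 to 13.4 ± 0.817 normalized CPM (log2 fold change 1.78, SE 0.11, adjusted p = 1.46e-13). With tau it reached 8.21 ± 0.197, and in *Cgas*-/- cells it lay between means of 5.44 and 6.81 in all 3 groups. Its interaction with genotype was -1.73 for HT-DNA and -0.75 for tau, both past the threshold.

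Of 14 receptor genes 12 were tested. Tau called 1 of them higher in *Cgas*+/+ cells, *Il15ra*, which encodes the chain that presents interleukin-15, from 6.77 ± 1.92 to 19.997 ± 3.30 normalized CPM (log2 fold change 1.56, SE 0.14, adjusted p = 1.00e-09). *Il15ra* was also the 1 receptor called higher with tau in *Cgas*-/- cells, by 1.38 on the log2 scale. HT-DNA called 3 higher in *Cgas*+/+ cells, *Il15ra* (2.05), *Il18rap* (1.43) and *Il1rap* (1.40), the last a shared subunit of the interleukin-1 receptor, and 1 lower, *Il1r1* (-1.73), its ligand-binding subunit. *Il1r1* was higher in *Cgas*-/- than in *Cgas*+/+ cells with every treatment, at 7.98 ± 0.521 against 2.18 ± 0.304 normalized CPM with vehicle (log2 difference 1.87, SE 0.19). In *Cgas*-/- cells HT-DNA called 0 of the 12 by the edgeR test, with 2 of them at an unadjusted p under 0.05. Of all tested genes 2.89% were called higher with tau and 5.29% with HT-DNA in *Cgas*+/+ cells, where HT-DNA called 2.79% lower. Tau called 2.46% higher in *Cgas*-/- cells. The counts of this list and of those that follow are to be read against these shares.

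Of the 8 genes of maturation and release tested, tau raised *Casp4* and *Nlrp3* and HT-DNA raised *Casp1*, *Casp4*, *Casp8* and *Nlrp3* in *Cgas*+/+ cells. *Casp4* encodes the mouse caspase-11, which cleaves gasdermin D. It went from 22.2 ± 3.71 normalized CPM to 67.4 ± 7.73 with tau and 77.3 ± 5.29 with HT-DNA. In *Cgas*-/- cells it rose with tau by 1.19 (SE 0.10, adjusted p = 3.98e-10), and it was 19.1 ± 3.16 with vehicle and 19.7 ± 0.557 with HT-DNA. *Casp1*, whose product cleaves the interleukin-1β and interleukin-18 precursors, rose by 1.12 with HT-DNA in *Cgas*+/+ cells. Of the 9 regulators of these transcripts, tau raised *Nfkbia* (1.25) and *Irf1* (1.08) in *Cgas*+/+ cells and *Irf1* (1.198) in *Cgas*-/- cells, and HT-DNA raised 5 in *Cgas*+/+ cells, led by *Zfp36* (1.53), whose product destabilises cytokine mRNAs, and *Irf1* (1.36). All 9 passed the adjusted p with tau in *Cgas*+/+ cells (15.8% of tested genes) and 8 with HT-DNA (22.8%).

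Of 15 other cytokine ligands 8 were tested. HT-DNA raised 5 in *Cgas*+/+ cells, among them *Ifnb1*, *Il7* and *Osm*, and lowered *Il16*, where 2.79% of tested genes were called lower. *Ifnb1*, which encodes interferon-β, had 71 to 96 counts with HT-DNA in *Cgas*+/+ cells, 1 to 11 with tau and 0 to 10 with vehicle, and at most 1 count in any *Cgas*-/- library. *Osm*, a ligand related to interleukin-6, rose by 1.42 (SE 0.09, adjusted p = 6.74e-14), from 15.5 ± 0.497 to 41.6 ± 2.09 normalized CPM. By the edgeR test tau raised 0 of the 8 past both thresholds in either genotype. On the adjusted p alone it raised 2 in *Cgas*+/+ (15.8% of tested genes) and 1 in *Cgas*-/- cells (11.2%). With 8 genes these counts do not set the list apart. At an unadjusted p under 0.05, 5 of the 8 changed in *Cgas*+/+ and 1 in *Cgas*-/- cells.

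Some of the 9 genes overlap a gene on the other strand, and whether reads were counted by strand was not given in the sources used here. *Il1b* overlaps *Il1bos* (at most 6 counts in any library) and *Il1a* overlaps *Gm14023* (2 to 20 counts). *Il27* overlaps exons of *Apobr*, which had 2002 to 2396 counts with vehicle, 2078 to 2312 with tau and 2173 to 2286 with HT-DNA in *Cgas*+/+ cells, and 1110 to 1435, 1589 to 1874 and 1198 to 1723 in *Cgas*-/- cells. *Il18* overlaps *Bco2* outside exons, and *Bco2* had its counts in the same order as *Il18*, with 43 to 68 with vehicle, 82 to 97 with tau and 143 to 163 with HT-DNA in *Cgas*+/+ cells and 10 to 36 in *Cgas*-/- cells.

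In the hippocampus the question was whether the same transcripts were higher with tau pathology. Only 3 of the 9, *Il1a*, *Il15* and *Il18*, had enough counts to pass the filter on low counts, and 0 of the 3 were called higher in *P301S* than in Ntg mice when an adjusted p under 0.05 was required together with more than 0.5 on the log2 scale, where the edgeR test called 1.32% of tested genes higher. At an unadjusted p under 0.05, 1 of the 3 passed. DESeq2 called that 1 gene, *Il1a*. No transcript had all 6 *P301S* mice above all 7 Ntg mice (0.438% of tested genes did). *Il1a* had between 0.396 and 0.933 normalized CPM (median 0.596) in Ntg and between 0.692 and 2.77 (median 1.40) in *P301S* mice, with 5 of 6 *P301S* mice above all Ntg mice. The difference was 1.38 on the log2 scale with an SE of 0.33 and an adjusted p of 0.0510. The adjusted p was 0.00456 with DESeq2's Wald test, 0.0493 with RLE scaling, 0.0115 without *P301S* mouse 63 and 0.124 without *P301S* mouse 65. *Il15* had medians of 0.736 and 0.889 normalized CPM in Ntg and *P301S* mice (log2 fold change 0.35, SE 0.31, adjusted p = 0.652). *Il18* had medians of 10.8 and 10.3 (log2 fold change -0.02, SE 0.15, adjusted p = 0.975).

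The other 6 transcripts had at most 38 counts in any mouse and were set side by side with an exact two-sided permutation test of the difference in mean CPM, for which 0.000583 is the smallest p that 7 mice against 6 allow. These permutation p are not adjusted over the transcripts. The antagonist *Il1rn* had 0 counts in 6 of the 7 Ntg mice and 1 in mouse 68, and 21, 23, 1, 10, 24 and 31 counts in *P301S* mice 29, 36, 43, 63, 65 and 77. It was at least 5.34-fold higher in *P301S* mice (exact permutation p = 0.00117), with 5 of 6 above all Ntg mice, and it was the 1 member called when genes with low counts were kept in the fit (adjusted p = 0.00281). *Tnf* had 1 to 4 counts in Ntg and 4 to 11 in *P301S* mice, with 5 of 6 *P301S* mice above all Ntg mice (exact permutation p = 0.00117). *Il1b* had 0 to 9 counts in Ntg mice, 18 to 38 in *P301S* mice 29, 36, 65 and 77, and 5 and 4 in mice 43 and 63 (exact permutation p = 0.0169). When genes with low counts were kept in the edgeR fit, the adjusted p was 0.0584 for *Tnf* and 0.118 for *Il1b*. *Il12b* had at most 4 counts (exact permutation p = 0.0536) and *Il27* at most 5 (exact permutation p = 0.108). *Il6* had at most 2 counts in any mouse, too few at this depth to show a difference.

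**Figure D4:**
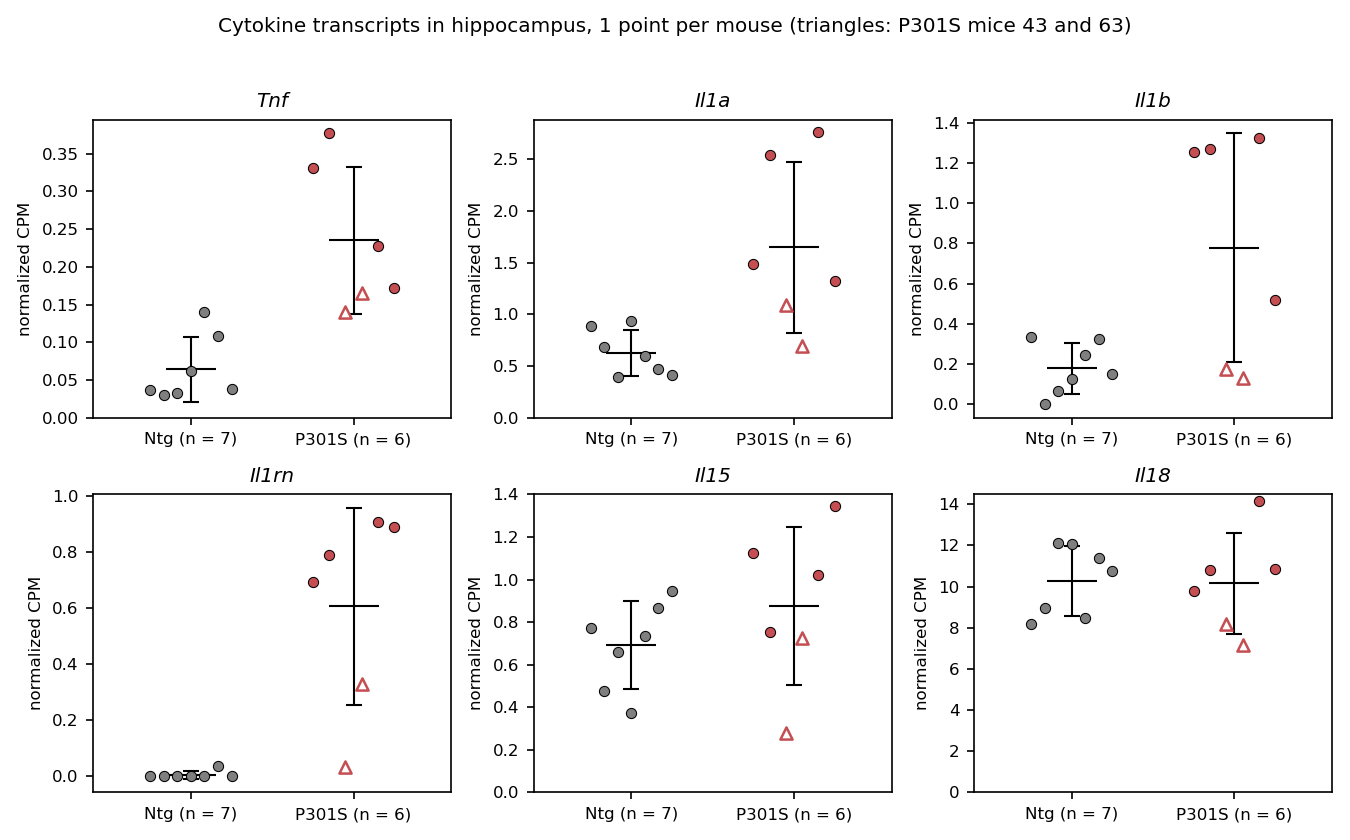
Normalized CPM (y axis) of 6 of the transcripts in hippocampi of Ntg (n = 7) and *P301S* (n = 6) mice, with 1 point per mouse, the mean as a line and SD as error bars. Open triangles are *P301S* mice 43 and 63, which lie within or just above the Ntg range for *Il1b* and *Tnf*, while the other 4 *P301S* mice lie above every Ntg mouse for *Tnf*, *Il1a*, *Il1b* and *Il1rn*.

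*P301S* mice 43 and 63 were the lowest of their group for *Il1a*, *Il1b*, *Il1rn*, *Tnf* and *Il18*. They were also the lowest of their group in the mean of 7 homeostatic microglial markers, at 4.66 and 4.86 on the log2 CPM scale, against 4.85 to 5.09 in Ntg mice and 5.30 to 5.69 in the other 4 *P301S* mice. The summed level of 7 microglial markers ranged from 310.4 to 388 normalized CPM in Ntg and from 310.0 to 707 in *P301S* mice, and that of 5 astrocyte markers from 1327 to 1519 and from 1341 to 4443. That of 3 T cell markers ranged from 0 to 0.165 and from 0.0351 to 1.19. The part of these cells in the results was not tested. With the homeostatic marker mean in the model as a covariate, the log2 fold change of *Il1a* was 0.93 with an adjusted p of 0.202. Over all genes the edgeR test called 37 with this covariate and 223 without it, so a higher adjusted p was not particular to *Il1a*. In whole tissue, fewer cells of a type and less RNA per cell cannot be told apart. Of the genes around the family, 1 of 8 of maturation and release was called higher, *Casp4* (0.209 ± 0.111 against 0.975 ± 0.542 normalized CPM, log2 fold change 2.20, SE 0.45, adjusted p = 0.0321). Over all genes the number called in hippocampus ran from 10 to 624 when 1 mouse was left out, so it depended on single mice. Whether the call of *Casp4* held in those fits is not given. By the edgeR test 0 of 10 receptors, 4 partners or binding antagonists, 9 regulators and 7 other ligands were called, and 4, 1, 5 and 4 of them had an unadjusted p under 0.05. The share of all tested genes at that unadjusted p is not given, so these counts do not set the lists apart.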

How the data were processed

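RNA from primary microglia and hippocampus was made into QuantSeq 3′ libraries. The authors deposited unnormalized read counts per gene in 2 tables, and per the labels the build was GRCm38 and edgeR and limma were used; the aligner, the counter and the strand setting are not given in the sources used here. All columns of both tables were mapped to samples. Genes with low counts were removed with filterByExpr, libraries were scaled by TMM, and counts were tested with edgeR 4.0.16 (R 4.3.3) by the quasi-likelihood test with Benjamini-Hochberg adjustment over all tested genes. The 6 microglial groups shared 1 fit, and the hippocampi another. SEs were derived from the log2 fold change and its F. Hippocampal transcripts under the filter were tested by exact two-sided permutation. A library with 3 counts or fewer was taken as at the floor, which covers counting error only. Ratios used 0.5 as pseudocount, and likeness log2 CPM with a prior count of 2. The 3 genes most like each transcript were named, among those with a mean of at least 1 CPM. Alternatives were DESeq2 1.42.0, RLE scaling, no filter, only the compared groups, other call thresholds, a replicate block, covariates in the hippocampus, and leaving out each library. The steps were tested on simulated data. The 9 transcripts, the accompanying gene lists and the tests were chosen with earlier results of these data known. Same-numbered microglial libraries did not deviate together (r of -0.085 to 0.0823 over 45 pairs). Positions are from GENCODE and upstream sequences from RefSeq.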

Additional observations from a re-analysis of the deposited data

Results flagged for a closer look

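The response to a stimulus differed by genotype, by the interaction term of the edgeR fit, for 10 pairs of transcript and stimulus, where 3.31% of all tested genes had a negative interaction with tau and 16.6% with HT-DNA. For tau the interaction on the log2 scale was -1.3957 for *Tnf*, -0.8808 for *Il1a*, -1.6942 for *Il1b* and -0.5014 for *Il1rn*. For HT-DNA it was -1.7129 for *Tnf*, -0.4812 for *Il1a*, -1.4743 for *Il1rn*, -2.1282 for *Il15*, -2.517 for *Il18* and -3.1543 for *Il27*. That of *Il1b* was lost in 4 of the 18 fits that left out a library. All 10 interactions were negative, the log2 fold change against vehicle being lower in *Cgas*-/- cells. This describes the change from vehicle and not the level reached. In vehicle cells the *Cgas*-/- libraries lay above the *Cgas*+/+ libraries for *Tnf*, *Il1a* and *Il1b* and below them for *Il1rn*, *Il15* and *Il18*. They overlapped for *Il27*. *Il1a* was also higher in *Cgas*-/- cells with tau (53.5 against 32.4 normalized CPM) and HT-DNA (41.1 against 18.9). The part of the vehicle levels in the interactions was not tested. With HT-DNA *Il15*, *Il18* and *Il27* did not rise in *Cgas*-/- cells (-0.20, -0.02 and -0.34). There the 0.10 of *Il1a* did not pass the edgeR test (adjusted p = 0.703). Genotype and culture cannot be told apart in these interactions.

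In the hippocampus 1 Ntg mouse stood apart from its group for each of 2 transcripts. Mouse 68 had 0.0362 normalized CPM of *Il1rn* and mouse 35 had 0.03689 of *Il12b*, each from 1 count where the other 6 mice had 0. In all, 18 groups were examined in this way. A single read among zeros meets the criterion by itself, so that the usual chance rate of about 1 in 20 does not hold for these counts.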

How the results depend on the processing

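Single-gene values kept their direction and their side of the threshold in 440 of the comparisons with an alternative setting, while 9 newly passed and 3 no longer did. Without the filter on low counts 1 transcript was called higher with HT-DNA in *Cgas*-/- cells (*Il1b*), and on the adjusted p alone 2. In *P301S* mice 1 was called with DESeq2, with RLE scaling (*Il1a* in both) and without the filter (*Il1rn*). On the adjusted p alone tau called 8 higher in *Cgas*-/- cells, 3 were lower with tau than with HT-DNA, and *Cgas*-/- cells had 1 higher and 7 lower with tau and 2 higher with HT-DNA. When the other groups were left out of the fit, 1 was lower in *Cgas*-/- vehicle cells, and with a minimum of 1 on the log2 scale the tau interaction called 2. It called 5 with DESeq2, RLE scaling or the replicate block, 6 without the filter and 3 to 6 when 1 library was left out (6 without the first *Cgas*+/+ vehicle library), in place of 4.

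Leaving out 1 library gave 0 to 1 positive HT-DNA interactions (1 without the first *Cgas*+/+ HT-DNA library, *Il12b*), 1 to 2 transcripts higher in *Cgas*-/- cells with HT-DNA, 1 to 2 higher and 1 to 3 lower with vehicle, and 0 to 1 higher in *P301S* mice (1 without mouse 43, 63 or 77). The exact permutation p ranged from 0.01894 to 0.1061 for *Il12b* and from 0.02381 to 0.1797 for *Il27*. Directions turned where the value was near 0 or the counts few. *Il12b* ranged from -1.7627 to 1.2764 for HT-DNA in *Cgas*+/+ cells and from -1.3166 to 1.2491 between genotypes with HT-DNA. For HT-DNA in *Cgas*-/- cells *Il18* ranged from -0.089 to 0.0551 and *Il27* from -0.5788 to 0.0804. *Il27* between genotypes with vehicle ranged from -1.0053 to 6e-04, the HT-DNA interaction of *Il1b* from -0.6082 to 0.135 and *Il18* in *P301S* mice from -0.1404 to 0.0571. The causes were not tested.

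The replicate numbers did not pair the microglial libraries. With a replicate block the tau interaction of *Il15* was -0.6567 with an adjusted p of 0.0421 in place of 0.0555, and the block changed no other call on the 9 transcripts. DESeq2 called 583 genes in *P301S* mice against 223 by edgeR. Leaving out 1 mouse gave between 10 genes (without Ntg mouse 61) and 624 (without *P301S* mouse 43) by edgeR.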
